A study of Mus musculus with 51 samples.

Results

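Serotonergic neurons of the adult mouse midbrain that carried an Eed mutation were compared with wt serotonergic neurons at 4 months of age. The 8 libraries were all those labelled 5HT and 4 months, out of 51 in the series: 4 PRC2 mutant libraries (S425 and S426 from males, S427 and S429 from females) and 4 wt libraries (S367 and S369 from males, S373 and S374 from females). All 8 carry the strain label SertCreEed, so Cre recombinase in this line is driven by the serotonin transporter gene and the deletion is meant for serotonergic cells. The exact Eed alleles, the Cre status of the wt animals and the age at deletion are not given in the labels. At 8 months the same line gave 4 mutant and 4 wt libraries, and midbrain dopaminergic (mDA) neurons of a DatCreEed line gave 10 mutant and 9 wt libraries at 4 months; these are used for comparison. Cells were sorted by fluorescence and sequenced with Smart-seq2, a full-length RNA-seq method for small inputs. The labels give each library its own replicate code, but do not say how many animals or cells went into it. The p-values therefore measure the spread between these libraries.

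Polycomb repressive complex 2 (PRC2) methylates lysine 27 of histone H3, a mark that keeps genes of other lineages and developmental regulators, the HOX genes among them, silent in differentiated cells. EED is the core subunit that binds this mark and is needed for the activity of the EZH1 and EZH2 methyltransferases. Serotonergic neurons make serotonin through Tph2 and Ddc, load it into vesicles through Slc18a2 and take it back up through Slc6a4, under transcription factors such as Fev, Lmx1b, Gata2 and Gata3.

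Total counts per library were 2795515 to 6047882 in the mutants and 3211468 to 5602332 in wt. Levels are given as CPM (counts scaled to a library total of 1000000, after TMM correction for library composition), in the order S425, S426, S427, S429 for mutants and S367, S369, S373, S374 for wt. The cell type label held in all 8 libraries. Without the TMM correction, Tph2 was at 1410 to 3350 CPM in the mutants and 1810 to 2960 CPM in wt, against at most 27.6 in the 35 mDA libraries of the series. The dopaminergic genes Th and Slc6a3 stayed at or below 17 CPM in all 8 libraries and were at least 598 and 897 CPM in the mDA libraries.

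Mutant S427 and wt S369 stood apart from the other serotonergic libraries. Their 50 most counted genes held 43.1% and 35.8% of all counts, against 24.3% to 28.1% in the other 14. They had the lowest totals, and their log2 CPM correlated with the other 6 libraries at 4 months at 0.746 to 0.812, against 0.867 to 0.893 among those 6. Without the TMM correction, the row for mCherry was at 0.715 and 2.18 CPM in S427 and S369, against 3.42 to 28.6 in the other 6. Results that rest on these libraries are therefore also given without them.

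Few genes were called at 4 months, which does not show that the others were unchanged. With edgeR's quasi-likelihood test and Benjamini-Hochberg adjustment, 2 of 15633 tested genes were higher in the mutants (0.0128%) and 0 were lower (0%). At an unadjusted p under 0.05, 589 genes were higher (3.77%) and 412 lower (2.64%), and DESeq2 called 40 higher (0.256%) and 8 lower (0.0512%). All 4 mutant libraries lay above all 4 wt libraries for 1.55% of tested genes and below them for 1.2%. The median log2 fold change over all tested genes was 0.01. Leaving out S427 and S369 gave 10 higher (0.0635%) and 2 lower calls (0.0127%), and both genes called in the full set were among them. In RNA from sorted cells in bulk, fewer cells of a type and less RNA per cell cannot be told apart.

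Amigo2, a leucine-rich repeat cell adhesion protein of neurons, was one of the 2 called genes. It was at 170, 105, 85.3 and 120 CPM in the mutants, and at 30.6, 18.1, 42.5 and 52.6 CPM in wt. Every mutant library was above every wt library. The means were 120 ± 36.3 CPM in the mutants and 35.9 ± 14.9 CPM in wt (SD, 4 libraries each), a log2 fold change of 1.81 (SE 0.28, adjusted p = 0.0136). Leaving out both outlying libraries gave a log2 fold change of 1.81 (adjusted p = 0.00597). At 8 months Amigo2 was at 54.3 to 78.7 CPM in mutants and 43.4 to 64 CPM in wt, and it was not called there (log2 fold change 0.31). The test of the difference between the ages did not pass for this gene (difference -1.51, adjusted p = 0.423). The call was lost when wt S367 (adjusted p = 0.108) or mutant S425 (adjusted p = 0.0544) was left out, and when the 8 libraries at 4 months were fitted alone (log2 fold change 1.8, adjusted p = 1).

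The Amigo2 gene lies on chromosome 15 (97244074 to 97247287, RefSeq, GRCm38.p6). Its 5′ end overlaps Pced1b, a gene on the opposite strand that starts at 97246973. No source used here says whether counting used strand, so reads from the overlap could belong to either gene. Pced1b was at 17.5, 13.8, 3.43 and 7.21 CPM in the mutants and 25, 10.9, 9.56 and 16.6 CPM in wt, with overlapping groups and a log2 fold change of -0.66 (adjusted p = 0.937). The promoter is shown because PRC2 target promoters are typically rich in CG pairs; the window runs from 250 bases before to 50 bases after the RefSeq start on the minus strand, chr15:97247238-97247537 (GRCm38.p6), with each CG in capitals.
Amigo2: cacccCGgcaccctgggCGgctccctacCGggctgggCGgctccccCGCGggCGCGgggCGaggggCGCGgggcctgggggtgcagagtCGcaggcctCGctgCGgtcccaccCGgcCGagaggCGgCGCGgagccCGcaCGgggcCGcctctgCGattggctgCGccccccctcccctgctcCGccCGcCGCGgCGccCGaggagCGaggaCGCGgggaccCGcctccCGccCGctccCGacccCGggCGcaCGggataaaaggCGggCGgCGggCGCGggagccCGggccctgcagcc
This window of 300 bases holds 46 CG pairs, a motif that reads the same on both strands. Among 11535 tested genes with a RefSeq promoter, the median was 20 CG pairs, 99% held at least 1, and 2.94% held as many as Amigo2 or more. The count describes the sequence and says nothing about which factor binds there.

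Tradd, an adaptor of TNF receptor 1 that links it to NF-kB and cell death signalling, was the other called gene. It was at 7.59, 8.23, 2.14 and 8.3 CPM in the mutants and had 0 counts in all 4 wt libraries. In all, 148 counts fell in the mutants and 0 in wt, which is at least 46.5-fold higher when the wt group is set to 3 counts in all (adjusted p = 0.0136). S427 was the lowest of the mutants. The adjusted p was 0.00736 without S427 and S369. The call was lost without wt S367 (adjusted p = 0.0676), wt S374 (0.0685) or mutant S425 (0.0544), and with limma voom and quality weights (0.0742). In the fit of the 8 libraries alone, Tradd was not among the tested genes.

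Of the 4 serotonergic groups, only wt at 4 months had 0 Tradd counts in every library. At 8 months, mutants had 16.1, 8.01, 15.4 and 11.1 CPM and wt libraries 7.28, 3.79, 3.69 and 2.46 CPM, without overlap, a difference that was not called (log2 fold change 1.58, adjusted p = 1). In the fit of all 51 libraries, the mutant effect on Tradd was larger in serotonergic than in dopaminergic neurons at 4 months (adjusted p of the difference 0.00222), with a log2 fold change of 0.94 in mDA neurons that was not called (adjusted p = 0.394). Tradd lies on chromosome 8 (105258575 to 105264594) beside Fbxl8, an F-box gene on the opposite strand that starts at 105264648. Fbxl8 was at 12.4, 7.86, 13.7 and 6.11 CPM in the mutants and 0.207, 4.1, 2.83 and 6.84 CPM in wt. These groups overlapped, and the difference was not called (log2 fold change 1.57, adjusted p = 0.766).

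**Figure D1:**
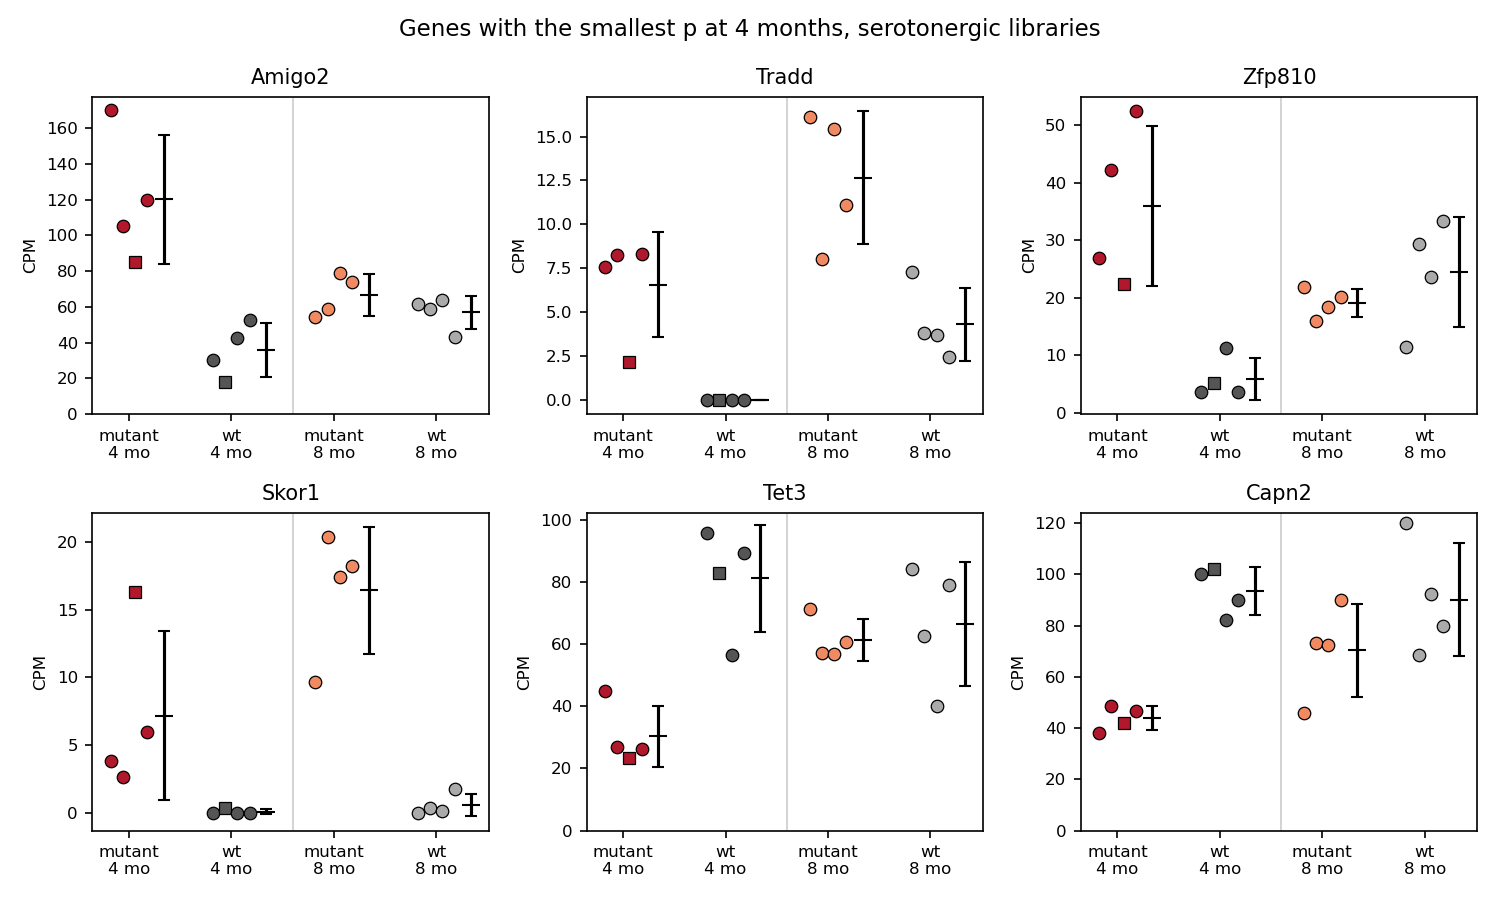
Level in CPM (y axis) of Amigo2, Tradd, Zfp810, Skor1, Tet3 and Capn2 in each serotonergic library (points), by genotype and age (x axis); squares are S427 and S369, and the bar beside each group is its mean ± SD over 4 libraries. At 4 months the mutant and wt points do not overlap in any of the 6 genes, while at 8 months they overlap for Amigo2, Zfp810, Tet3 and Capn2.

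The next genes by p on the higher side did not pass the threshold, and several were at or near 0 in wt. Skor1, a transcriptional corepressor of the SKI family, was at 3.8, 2.62, 16.3 and 5.95 CPM in the mutants, and at 0.342 CPM in wt S369 and 0 in the other 3 wt libraries. That is 113 counts in mutants and 1 in wt, a ratio of 106.5 with a 95% counting interval of 18.7 to 4240 (adjusted p = 0.106). The groups did not overlap, and the highest value was in S427. Vax2os, a transcript from the strand opposite the homeobox gene Vax2, had 42 counts in mutants and 1 in wt (ratio 39.6, interval 6.73 to 1600, adjusted p = 0.108). Hoxc10, a homeobox gene of the posterior body axis, had 63 counts in mutants and 2 in wt (ratio 29.7, interval 7.89 to 251, adjusted p = 0.136). Both were above wt in all 4 mutants, with every mutant library at or below 6.43 CPM.

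A pair of zinc finger genes were in the same range of p. Zfp810 was at 26.9, 42.3, 22.3 and 52.5 CPM in the mutants and 3.51, 5.13, 11.2 and 3.6 CPM in wt. Its groups did not overlap, the log2 fold change was 2.62 (SE 0.46), and the adjusted p of 0.0518 fell just short of the threshold. It was called without S427 and S369 (log2 fold change 2.77, adjusted p = 0.0359). Zfp354a was at 64.2, 61.4, 49.3 and 38.2 CPM in the mutants and 17.2, 6.16, 15.8 and 22.7 CPM in wt, again without overlap (log2 fold change 1.81, SE 0.36, adjusted p = 0.106). At 8 months neither gene was called, with log2 fold changes of -0.35 and -0.09. Zfp810 averaged 36 CPM in mutants and 5.85 CPM in wt at 4 months, and 19.1 and 24.5 CPM at 8 months. Zfp354a averaged 53.3 and 15.4 CPM at 4 months, and 36.1 and 40.2 CPM at 8 months. The test of the difference between the ages did not pass for Zfp810 (-2.97, adjusted p = 0.234) or Zfp354a (-1.91, adjusted p = 0.443).

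Klk1b22, a member of the kallikrein family of near-identical serine protease genes, was detected in 3 of the 4 mutants. It was at 14.4, 11.8 and 14.6 CPM in S425, S426 and S429, but had 0 counts in S427 and in all 4 wt libraries. The 243 counts in mutants and 0 in wt are at least 76.3-fold higher on the same basis (adjusted p = 0.136), and without S427 and S369 the gene was called (adjusted p = 0.0168). Reads shared between such copies may have been divided in counting, so this value is uncertain. At 8 months it was called higher, with 5.53, 5.92, 1.83 and 46.8 CPM in mutants and 0, 0.18, 0 and 0 CPM in wt (adjusted p = 0.0244).

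On the lower side 0 genes were called by edgeR; the smallest p belonged to Tet3, which oxidises 5-methylcytosine in DNA. Tet3 was at 44.9, 26.9, 23.2 and 26.3 CPM in the mutants and 95.7, 83.1, 56.5 and 89.5 CPM in wt. All 4 mutants were below all 4 wt libraries (log2 fold change -1.43, SE 0.26, adjusted p = 0.0803), and without S427 and S369 the adjusted p was 0.0662. Capn2, the catalytic subunit of calpain-2, was at 38.1, 48.6, 42 and 46.5 CPM in the mutants and 100, 102, 82.1 and 90.2 CPM in wt. Its spread within groups was small and the groups did not overlap, with a log2 fold change of -1.1 (SE 0.24, adjusted p = 0.145). DESeq2 called both, with adjusted p of 0.000465 for Tet3 and 0.0109 for Capn2. At 8 months Tet3 and Capn2 had log2 fold changes of -0.18 and -0.33 and were not called. The test of the difference between the ages did not pass for either gene (1.24 for Tet3 and 0.76 for Capn2).

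The other 6 genes on that side also had all mutants below all wt libraries and were not called by edgeR, with adjusted p from 0.317 to 0.448. Genes of both sides were picked by small p in these same libraries, so the separation of their groups is no separate support. DESeq2 called 4 of them, Isyna1 (adjusted p = 0.0467), Sec14l2 (0.0158), Myo1c (0.0467) and Crb1 (0.0239). Isyna1, the inositol phosphate synthase, averaged 51.7 ± 18.6 CPM in mutants and 106.7 ± 7.6 CPM in wt. Rnps1, an RNA-binding protein of the exon junction complex, averaged 120 ± 30.6 CPM in mutants and 209 ± 17.7 CPM in wt. Crb1, an apical polarity protein, averaged 2.76 ± 2.53 CPM in mutants and 17.6 ± 4.49 CPM in wt. For these 3, as for the others below, the standard deviations were below the gap between the group means. Sec14l2, a lipid-binding protein, averaged 3.07 ± 1.45 CPM in mutants and 13.6 ± 5.08 CPM in wt. Myo1c, an unconventional myosin, averaged 43.2 ± 11.2 CPM in mutants and 84.7 ± 12.3 CPM in wt. For Cr1l, a regulator of complement, the means were 8.38 ± 2.76 CPM in mutants and 22.1 ± 6.4 CPM in wt. Of the 6, only Rnps1 had groups without overlap at 8 months (log2 fold change -0.56, not called). Only Isyna1 was called in mDA neurons at 4 months in the fit of all 51 libraries (-0.79, adjusted p = 0.00305). In that fit the effects of Sec14l2 and Rnps1 differed between the cell types (adjusted p = 0.0343 and 0.0446).

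Eed itself was not lower in the mutants. It was at 21.5, 29.4, 28.7 and 22.1 CPM in the mutants and 14.3, 7.87, 10.8 and 8.28 CPM in wt. The groups did not overlap and the log2 fold change was 1.29 (95% interval 0.5 to 2.09), but it was not called (adjusted p = 0.554). Counts over the whole gene do not show whether the deleted exons were read, so they do not check the deletion. Of 13 tested PRC2 subunit genes, 0 were called by edgeR or DESeq2, 6 had a positive log2 fold change, and the median was -0.04. At an unadjusted p under 0.05, 1 of the 13 (Eed) was higher, against 3.77% of all tested genes. Ezh1 was at 58.3, 58.6, 63.9 and 96.4 CPM in mutants and 136, 128, 60.2 and 59.2 CPM in wt, with overlapping groups (adjusted p = 0.916). The 23 tested PRC1 subunit genes had 17 positive values, a median of 0.2 and 0 calls by either tool or at the unadjusted threshold. Without S427 and S369, 13 of the 23 were positive with a median of 0.01, and 8 of the 13 PRC2 genes with a median of 0.04.

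None of the genes that define serotonergic neurons was called at 4 months. Tph2, the rate-limiting enzyme of brain serotonin synthesis, was at 3340, 1920, 1700 and 2200 CPM in the mutants and 2390, 1990, 2790 and 2920 CPM in wt. The groups overlapped, and the log2 fold change was -0.14 (95% interval -0.61 to 0.33, adjusted p = 0.981). Slc6a4, the serotonin transporter, was at 3450, 2530, 2460 and 2420 CPM in the mutants and 2280, 2060, 2490 and 2460 CPM in wt, also overlapping (log2 fold change 0.23, interval -0.11 to 0.56, adjusted p = 0.922). The highest Slc6a4 value was in S425.

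Slc18a2, the vesicular monoamine transporter, was at 2630, 2640, 1270 and 2370 CPM in the mutants and 2540, 1580, 2640 and 2710 CPM in wt. Its low values were in the outlying S427 and S369, and the log2 fold change was -0.09 (interval -0.54 to 0.35). Ddc, the decarboxylase of serotonin synthesis, was at 1010, 881, 837 and 796 CPM in the mutants and 803, 977, 1080 and 983 CPM in wt (log2 fold change -0.12, interval -0.49 to 0.25). Htr1a, the inhibitory autoreceptor, was at 74.4, 90.7, 63 and 74 CPM in the mutants and 133, 47.9, 123 and 133 CPM in wt. The mutant values lay below 3 of the wt libraries and above S369, with a log2 fold change of -0.53 (interval -1.12 to 0.06, adjusted p = 0.826). With both outlying libraries left out it was -0.74 (adjusted p = 0.381).

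Gch1, which makes the cofactor of Tph2, had a log2 fold change of 0.16 (interval -0.33 to 0.65), and Maob, a monoamine-degrading enzyme, one of 0.58 (interval -0.08 to 1.23). Maob was at 360, 278, 169 and 254 CPM in the mutants and 159, 91, 189 and 275 CPM in wt. Among the transcription factors, Fev was at 53.6, 34.4, 35.6 and 41.7 CPM in the mutants and 37.2, 46.2, 73.3 and 61.8 CPM in wt (log2 fold change -0.38, interval -1.17 to 0.41). Gata2 and Gata3 had log2 fold changes of -0.3 (interval -0.8 to 0.19) and 0.26 (interval -0.15 to 0.68), and Lmx1b one of 1.11 with a wide interval (-1.33 to 3.54) at 0.429 to 6.93 CPM in mutants and 0 to 3.08 CPM in wt. None of these genes was called, which does not show that they were equal.

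Over the 18 genes of serotonin synthesis, transport and autoreceptors, all of them tested, 0 were called by edgeR or DESeq2. At an unadjusted p under 0.05, 1 was lower, against 2.64% of all tested genes. That gene was Gchfr, the feedback regulator of Gch1, at 163, 78.6, 42 and 98.7 CPM in mutants and 155, 117, 161.5 and 174 CPM in wt (log2 fold change -0.68, adjusted p = 0.745). The 18 genes had 9 positive values and a median of 0.04, near the 0.01 of all tested genes, and their summed level was 7120 to 11900 CPM in mutants and 7410 to 10500 CPM in wt. With S427 and S369 left out, 8 of 18 were positive and the median was -0.06. Of 8 tested serotonergic transcription factors and 16 raphe subtype markers, 0 were called by either tool or passed the unadjusted threshold, with medians of 0 and -0.15.

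At 8 months the same 18 genes had 7 calls, all lower in mutants, and a median of -1.16. Over all tested genes, 39 were called higher (0.249%) and 23 lower (0.147%) at 8 months. The difference between the mutant effects at 8 and 4 months was tested as a contrast over all genes. It was called for 2 of 15633 genes (0.0128%), and these were Tph2 and Slc6a4. Tph2 was at 329, 557, 394 and 330 CPM in mutants and 2690, 2760, 3370 and 2120 CPM in wt at 8 months, so that the effect at 8 months was 2.62 lower on the log2 scale than at 4 months (difference -2.62, SE 0.33, adjusted p = 0.000496). Slc6a4 was at 517, 578, 595 and 509 CPM in mutants and 2640, 2620, 2820 and 2630 CPM in wt at that age (difference -2.51, SE 0.23, adjusted p = 5.22e-06). For Slc18a2, Ddc and Htr1a, which were called lower at 8 months, the difference between ages was -1.28, -0.95 and -1.86 and was not called (adjusted p = 0.314, 0.547 and 0.238).

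**Figure D2:**
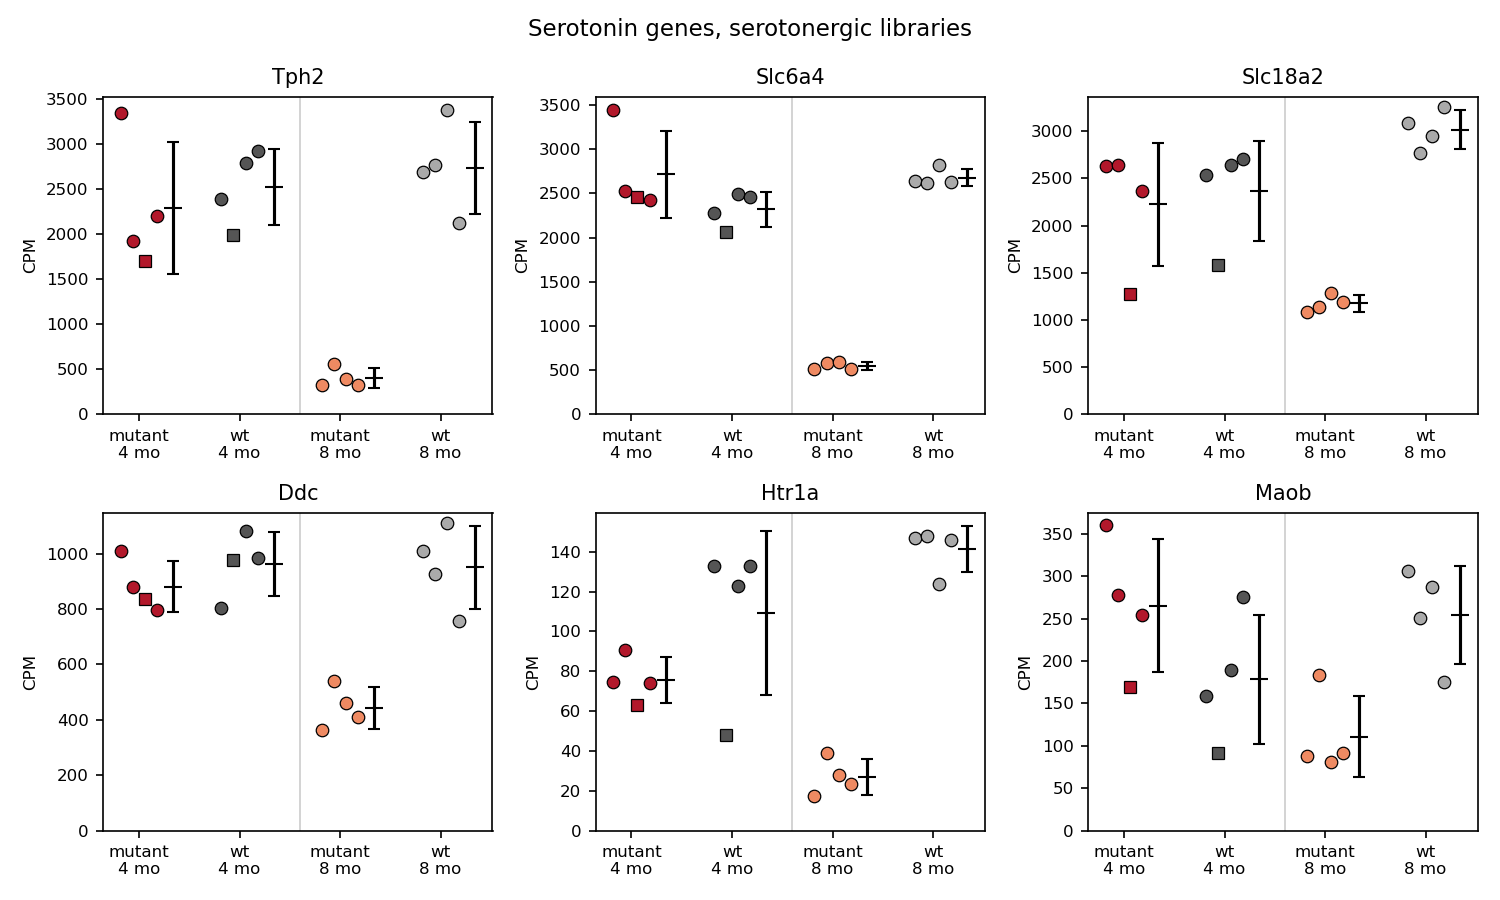
Level in CPM (y axis) of Tph2, Slc6a4, Slc18a2, Ddc, Htr1a and Maob in each serotonergic library (points), by genotype and age (x axis); squares are S427 and S369, and bars are mean ± SD over 4 libraries. The 4-month groups overlap in all 6 genes, and at 8 months the mutants lie below wt for the first 5.

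HOX cluster genes, the classical PRC2 targets, were low in both groups at 4 months. Of the 39 genes, 38 had at least 1 count in the 8 libraries and 24 passed the low-count filter over all 16 serotonergic libraries. On the 8 libraries at 4 months alone 1 would have passed, so most of the 24 entered through their level at 8 months. The counts over these 24 are a description of the genes that passed and not of all HOX genes. Of all 15633 tested genes, 13674 would have passed on the 8 libraries. The shares of all tested genes set beside HOX counts here and below are therefore not a matched background. Among the 24, 0 were called by edgeR and 4 were called higher by DESeq2, against 0.256% of all tested genes. At an unadjusted p under 0.05, 8 were higher and 0 lower, against 3.77% and 2.64% of all tested genes. A positive log2 fold change was found for 22, and the median was 2.41, or 1.98 with genes at 0 in a group set to a 3-count floor.

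Summed over all 39 HOX genes, the level was 24.1, 35.5, 110 and 27.7 CPM in the mutants and 6.41, 29.8, 7.97 and 14.8 CPM in wt. The highest sum of each group was in S427 and S369, and S369 lay within the mutant range. Among the other 6 libraries the mutants (24.1 to 35.5 CPM) lay above wt (6.41 to 14.8 CPM). At 8 months the sum was 430, 399, 569 and 476 CPM in mutants and 8.32, 7.39, 12.5 and 6.51 CPM in wt, so every 8-month mutant was above every 4-month mutant. In the fit without S427 and S369, 21 of 25 tested HOX genes were positive (median 1.82), 6 had every mutant above every wt library (24%, against 6.27% of all genes with 3 libraries a group), and 2 were called, Hoxd10 and Hoxd11, both posterior genes of the HOXD cluster.

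For 3 of the tested HOX genes (12.5%, against 1.55% of all tested genes) all 4 mutants were above all 4 wt libraries, Hoxc10 as above, Hoxc8 and Hoxd4. Hoxc8 was at 0.99, 1.5, 6.43 and 1.41 CPM in the mutants with 0 counts in wt (38 counts in mutants and 0 in wt, at least 11.9-fold higher, adjusted p = 0.317). Hoxd4 was at 2.97, 3.18, 7.29 and 0.627 CPM in the mutants and 0.207, 0.342, 0 and 0.18 CPM in wt (56 counts in mutants and 3 in wt, ratio 17.6, interval 5.72 to 87.9, adjusted p = 0.145). S427 was the highest library for all 3. Hoxd10 was at 5.61, 3.18, 9.86 and 2.51 CPM in the mutants and 0, 6.84, 0 and 0 CPM in wt, so that S369 was the only wt library with counts. These and the further genes of gene lists named from here on were chosen after their values were seen.

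Other developmental transcription factors held 0 called genes. Of 207 genes, 125 were tested, 39 of which would pass on the 4-month libraries alone. The shares of all tested genes are therefore not a matched background for this list either. Of those 39, 30 were positive. None (0) of the 125 was called by edgeR and 4 were called higher by DESeq2, against 0.256% of all tested genes. At an unadjusted p under 0.05, 16 were higher and 1 lower, against 3.77% and 2.64% of all. Of the 125, 83 were positive (66.4%, against 50.5% of all tested genes), with a median of 0.48, or 0.56 with the 3-count floor. The size of the median rested on single libraries: it was 0.13 with 72 positive values without S427 alone, and 0.93 with 97 positive values without S369 alone. For 6 (4.8%) all mutants were above all wt libraries, against 1.55% of all tested genes. The summed level was 349, 405, 822 and 395 CPM in the mutants and 309, 469, 272 and 264 CPM in wt, and S427 and S369 again had the highest sum of their groups. Leaving both out, 78 of 131 were positive (59.5%) with a median of 0.56, and 8 (6.11%) had every mutant above every wt library, a share near the 6.27% of all genes. At 8 months the sum was 1160 to 1390 CPM in mutants and 244 to 297 CPM in wt, and 12 members were called higher, against 0.249% of all tested genes.

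Onecut2, a cut homeobox factor, had the highest level of those 6, at 57.3, 54.1, 132 and 55.5 CPM in the mutants and 15.1, 41.4, 19.7 and 9.54 CPM in wt. The groups did not overlap, with a log2 fold change of 1.89 (adjusted p = 0.268). Isl2, a LIM homeobox factor of motor and sensory neurons, was at 9.74, 2.62, 3 and 4.39 CPM in the mutants and 0, 0, 0.177 and 1.98 CPM in wt. Foxf1, a forkhead factor of mesoderm, was at 2.48, 0.187, 4.29 and 3.45 CPM in the mutants with 0 counts in wt. The remaining 3 were Skor1, Irx1 and Sox9, a factor that marks astrocytes in the adult brain.

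**Figure D3:**
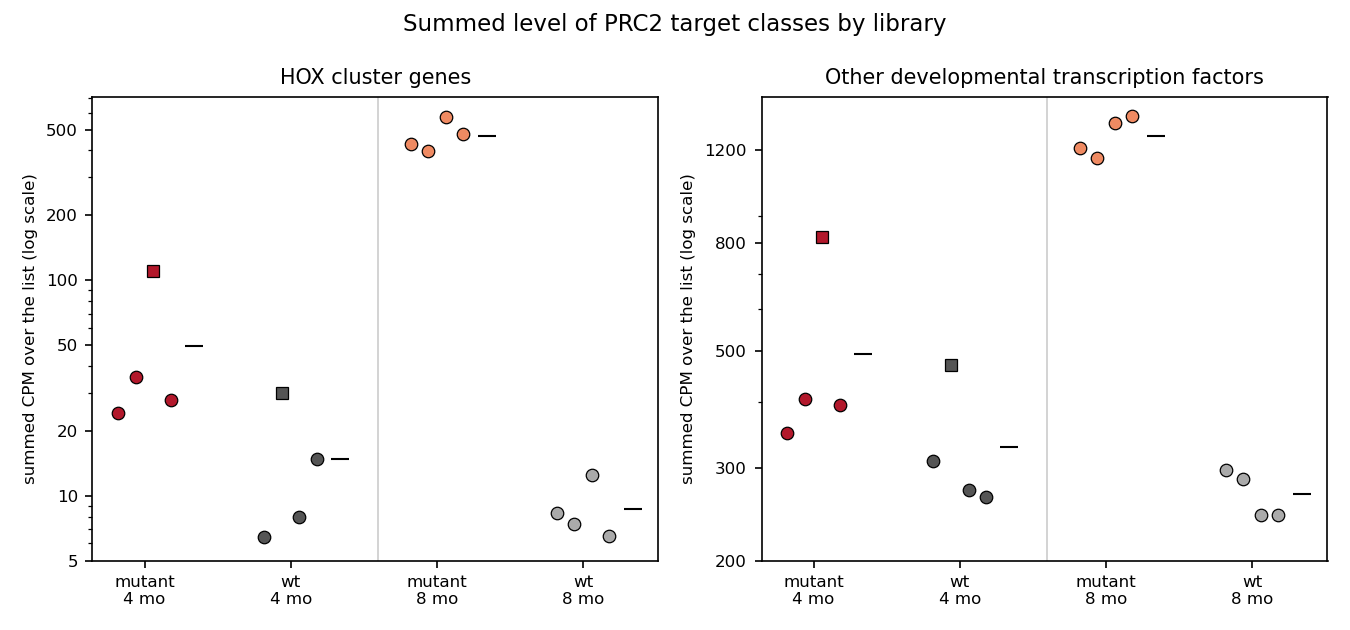
Summed CPM (y axis, log scale) over 39 HOX cluster genes and over 207 other developmental transcription factors in each serotonergic library (points), by genotype and age (x axis); squares are S427 and S369 and the short bar is the group mean. At 4 months the mutants are at 24.1 to 110 CPM for HOX genes with 1 wt library, S369, within their range, and at 8 months the mutants are at 399 to 569 CPM.

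The genes called at 8 months were then read at 4 months, where no library is shared. The low-count filter and the spread estimate used libraries of both ages. Some genes, such as Vax2os and Hoxc10, passed that filter through their 8-month level and were not tested on the 4-month libraries alone. Of all 15633 tested genes, 13674 would pass on those libraries, so the shares of all tested genes below are not a matched background. Of the 39 called higher at 8 months, 32 had a positive log2 fold change at 4 months (82.1%), and the median was 1.89. For 12 of them (30.8%) all 4 mutants were above all 4 wt libraries, against 1.55% of all tested genes. Leaving out S427 and S369 these were 33 positive, a median of 2 and 18 without overlap (46.2%), against 6.27% of all genes. The 12 were Skor1, Vax2os, Hoxc10, Hoxc8, Hoxd4, Foxf1, Fendrr, Isl2, Onecut2, Insrr, Slc6a5 and BC061194. Fendrr, the non-coding RNA beside Foxf1, was at 4.79, 2.06, 6.43 and 1.41 CPM in mutants and 1.24, 0, 0 and 0 CPM in wt. Slc6a5, the neuronal glycine transporter, was at 21.1, 11.2, 12.9 and 17.7 CPM in mutants and 5.17, 0.342, 9.74 and 8.46 CPM in wt. By contrast, Dlx1, a forebrain homeobox gene that was also called higher at 8 months, was near 0 in both groups at 4 months, with 8 counts in mutants and 11 in wt.

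Of the 23 genes called lower at 8 months, 17 had a negative log2 fold change at 4 months (73.9%), but the median was -0.12 and for 0 were all mutants below all wt libraries, against 1.2% of all tested genes. None (0) was called at 4 months, and the values ran close to 0 for most. Htr1a and Gchfr, given above, and Hcrtr1, the orexin receptor (166, 233, 124 and 184 CPM in mutants and 312, 304, 216 and 226.3 CPM in wt, log2 fold change -0.58), were among the lowest. Leaving out the outlying libraries, 13 were negative (56.5%), with a median of -0.06 and 1 without overlap (4.35%, against 5.24% of all genes).

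**Figure D4:**
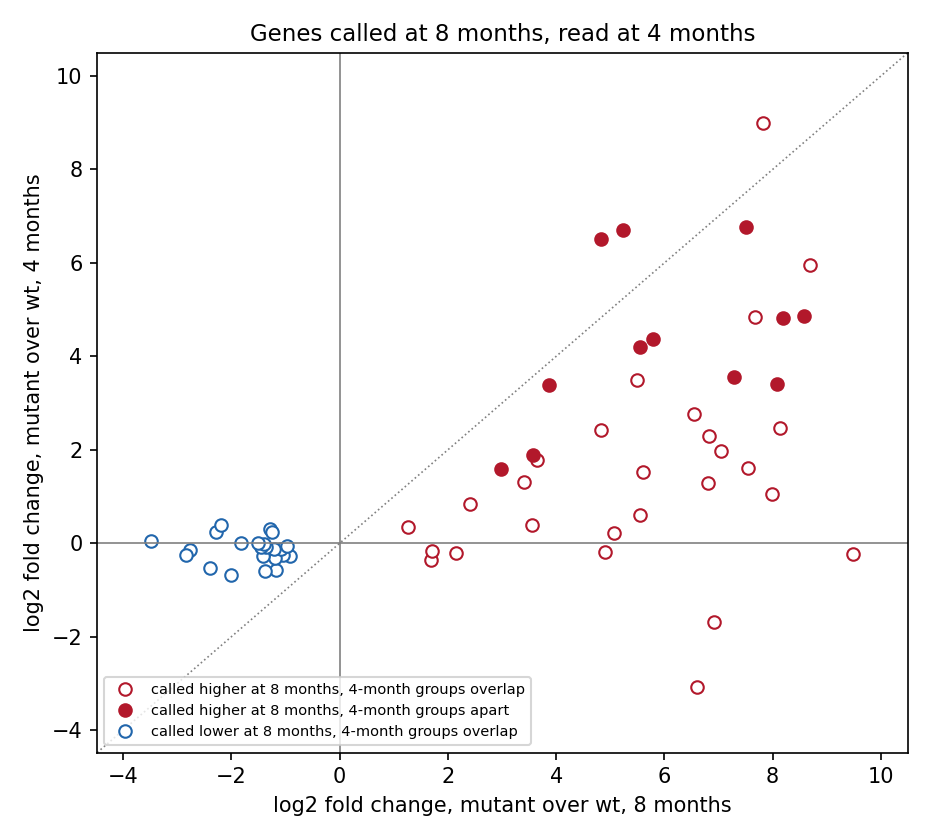
Log2 fold change of mutant over wt at 4 months (y axis) against that at 8 months (x axis) for the 62 genes called at 8 months; red genes were called higher and blue ones lower at 8 months, filled points are genes whose 4-month groups do not overlap, and the dotted line marks equal effects. The 39 red genes have a 4-month median of 1.89, and the 23 blue genes a median of -0.12.

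The mutant effect at 4 months was also set against that in mDA neurons of the DatCre line, in 1 fit of all 51 libraries with sex and sequencing set as terms. In serotonergic neurons this fit called 39 genes higher and 16 lower, against 2 and 0 in the fit of the 16 serotonergic libraries. In mDA neurons it called 34 genes higher (0.185%) and 24 lower (0.131%). Of the 34, 28 were positive in serotonergic neurons at 4 months (82.4%), with a median of 0.88, and for 8 (23.5%) the groups did not overlap, against 1.55% of all genes. Of the 24 called lower, 13 were negative (54.2%), with a median of -0.03, and for 2 (8.33%, against 1.2% of all genes) all mutants were below all wt libraries. Leaving out S427 and S369, 26 of the 34 were positive (76.5%, median 0.89, 11 without overlap or 32.4%), and 10 of the 24 were negative (41.7%, median 0.02, 3 without overlap or 12.5%), against 6.27% of all genes without overlap on the higher and 5.24% on the lower side. The difference between the 2 effects was called for 17 of 18386 genes (0.0925%), 8 with the larger value in serotonergic and 9 with the larger value in mDA neurons. In the mDA libraries at 4 months, the 50 most counted genes held 25.2% to 41.4% of counts in mutants and 26.3% to 33.8% in wt. Above the 30% that set S427 and S369 apart were mutants D186, D187, D192, D226, D237 and D238, all female. The wt libraries above it were D294, D295 and D296, all male. These mDA libraries were all kept, and the part of this imbalance in the mDA calls and the cell type differences was not tested. In some of their sequencing sets, mutants and wt were of opposite sex.

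Gata2 and Shox2 were among the genes with the larger value in mDA neurons. Gata2 is a factor of serotonergic and GABA neurons and was at 76.8, 71.5, 52.7 and 80.2 CPM in the mutants and 77.5, 106.7, 92.4 and 71.7 CPM in wt. In mDA neurons its log2 fold change was 2.23 (adjusted p = 3.55e-05), and the difference was -2.53 (SE 0.51, adjusted p = 0.0239). Shox2, a homeobox factor, was at 9.74, 4.86, 21 and 13.2 CPM in serotonergic mutants and 13, 3.08, 7.08 and 4.5 CPM in wt, and its log2 fold change in mDA neurons was 3.62 (difference -2.88, SE 0.61, adjusted p = 0.0343). Tet3 (difference -1.64, adjusted p = 0.00313), Arid5b, a DNA-binding cofactor (-2.02, adjusted p = 0.00313), and Stk4, a kinase of the Hippo pathway (-2.13, adjusted p = 0.0343), also differed, with negative values in serotonergic neurons and positive, uncalled ones in mDA neurons.

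Zfp810, Tradd, Adrb1, Tmem181a and Rnft1 had the larger value in serotonergic neurons. Zfp810 differed by 2.45 (SE 0.4, adjusted p = 0.00173), with a log2 fold change of 0.15 in mDA neurons. Adrb1, the beta-1 adrenergic receptor, was not tested in the serotonergic fit; it was at 0.66, 1.12, 18 and 5.33 CPM in mutants and 0.207, 0, 0 and 0.18 CPM in wt, most of it in S427. Tmem181a and Rnft1, genes of a transmembrane and a RING finger protein, differed by 1.84 and 1.31 (adjusted p = 0.0343 each), with log2 fold changes of 0.86 and 0.7 in serotonergic neurons and -0.99 and -0.61 in mDA neurons. Amigo2 also differed (1.61, SE 0.36, adjusted p = 0.0446).

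Signalling, transmitter and metabolic lists held 0 called genes with edgeR, as did every other list. At an unadjusted p under 0.05, 2 of 27 tested WNT, BMP and hedgehog family genes were higher and 2 lower. The shares of all tested genes were 3.77% and 2.64%. DESeq2 called 1 of the 27 higher, against 0.256% of all tested genes, and the median was 0.52. Wnt10b, a WNT ligand, was at 6.6, 19.5, 5.15 and 28.7 CPM in mutants and 0.207, 3.08, 1.24 and 0.54 CPM in wt, without overlap (log2 fold change 3.54, adjusted p = 0.419). It was called without S427 and S369 (log2 fold change 5.44, adjusted p = 0.0164). Its log2 fold change at 8 months was -0.12, and the difference between the ages was not called (-3.66, adjusted p = 0.822).

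The 22 cholesterol synthesis genes had 21 positive values (95.5%, against 50.5% of all tested genes) and a median of 0.27. Of them, 6 were higher at an unadjusted p under 0.05, against 3.77% of all tested genes, and 0 were called by either tool. Their summed level was 3210, 3020, 2660 and 3540 CPM in mutants and 2690, 2340, 2490 and 2560 CPM in wt, with only mutant S427 inside the wt range. Leaving out S427 and S369, 19 of the 22 were positive and the median was 0.21. At 8 months the same list had 1 positive value and a median of -0.37. Nuclear genes of oxidative phosphorylation had 11 positive values of 62 (17.7%) and a median of -0.14. They had 1 lower member at an unadjusted p under 0.05 (against 2.64% of all tested genes) and 0 calls by either tool. Their sum was 9190, 7060, 5360 and 7710 CPM in mutants and 8610, 5830, 8520 and 9380 CPM in wt, lowest in S427 and S369, and without those libraries 18 of 62 were positive (29%, median -0.12).

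Receptors for glutamate, GABA and glycine had 16 positive values of 39 and a median of -0.11, with 4 lower at an unadjusted p under 0.05 (against 2.64% of all tested genes) and 0 called by either tool. Without S427 and S369, 10 of 39 were positive and the median was -0.22. Their summed level did not overlap between groups, at 2920, 3310, 3160 and 3250 CPM in mutants and 3940, 3420, 3420 and 3520 CPM in wt. For 2 of the 39 (5.13%, against 1.2% of all tested genes) all mutants were below all wt libraries. Gabrb2, a GABA-A receptor subunit, was at 38.6, 40.6, 34.3 and 47.5 CPM in mutants and 73.8, 68.4, 49 and 68.2 CPM in wt (log2 fold change -0.69, adjusted p = 0.712). Grik3, a kainate receptor subunit, was called lower without S427 and S369 (log2 fold change -4.54, adjusted p = 0.0473); it was at 0.495, 0.748, 10.7 and 0.94 CPM in mutants and 26.7, 2.39, 7.26 and 16.6 CPM in wt. Chl1, a cell adhesion protein of the L1 family, was the other gene called lower there (log2 fold change -1.08, adjusted p = 0.0164), at 146, 103, 202 and 124 CPM in mutants and 234, 167, 307 and 255 CPM in wt. Synaptic vesicle genes, ion channels, immediate early genes, and genes of the p53 and unfolded protein responses had medians between -0.11 and 0.2, at most 2 members of a list at an unadjusted p under 0.05, and 0 calls by either tool. Their shares of positive values ran from 36.8% (synaptic vesicle genes) to 71.7% (potassium channel genes), against 50.5% of all tested genes. At the unadjusted threshold 3.77% of all tested genes were higher and 2.64% lower.

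Markers of other cells that a sort could carry over were present at low to moderate levels in both groups, and 0 were called by either tool. At most 1 of each list passed an unadjusted p under 0.05, where 3.77% of all tested genes were higher and 2.64% lower. Oligodendrocyte markers, 15 of 15 tested, summed to 1620, 1140, 441 and 1290 CPM in mutants and 1730, 687, 993 and 1170 CPM in wt. Astrocyte markers, also 15 of 15, summed to 357 to 731 CPM in mutants and 441 to 914 CPM in wt. Microglia markers (12 of 12) summed to 54.1 to 61.9 CPM in mutants and 51.3 to 111 CPM in wt, and endothelial and mural markers (14 of 14) to 20.6 to 124 CPM in mutants and 34 to 90.3 CPM in wt. Precursors of oligodendrocytes (8 of 8) gave 41.5 to 60 CPM in mutants and 11.5 to 77.1 CPM in wt. Ependymal and choroid markers (4 of 8 tested) stayed at 6.93 to 10.7 CPM in mutants and 5.49 to 17.8 CPM in wt, and Hbb-bs had 0 counts in all 8 libraries. Without S427 and S369 the microglia sums did not overlap, at 57, 61.9 and 54.1 CPM in mutants and 84.6, 111 and 70.8 CPM in wt. In that fit every mutant was below every wt library for 1 of 12 microglia (8.33%) and 1 of 14 endothelial and mural markers (7.14%), against 5.24% of all genes. Every mutant was above every wt library for 4 of 15 astrocyte (26.7%), 2 of 15 oligodendrocyte (13.3%) and 1 of 8 precursor markers (12.5%), against 6.27%. Over all 8 libraries the sums of the 2 groups overlap for each of these cell types, and their part in the results above was not tested.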

How the data were processed

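RNA of FACS-sorted midbrain neurons was sequenced with Smart-seq2, per the labels' protocols. The authors deposited raw read counts per gene for 51 libraries (24564 genes). The submitters' processing notes name STAR 2.7.0a and the builds mm10 and GRCm38. How reads were counted, and whether strand was used, is not given in the sources used here. The mCherry row was kept out of tests, 0 column pairs were identical, and counting intervals and floors cover counting error only.

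Counts of the 16 serotonergic libraries were fitted with edgeR 4.0.16 in R 4.3.3 (TMM, filterByExpr with a minimum count of 10, robust quasi-likelihood fit, sex as a term), and a gene was called at a Benjamini-Hochberg adjusted p under 0.05 over all tested genes. The comparison with mDA neurons used all 51 libraries. Log2 fold changes are mutant over wt; SEs derive from the F statistic and, like the 95% intervals built on them, are approximate. Replicate codes are not shared between groups, so the labels pair no libraries and no block was fitted. DESeq2 1.42.0, limma 3.58.1 (voom with quality weights), RLE scaling, no low-count filter, no sex term, the 8 libraries alone, all 51 libraries and leaving out each library were tried; the run without S369 and S427 (set apart by over 30% of counts in 50 genes) and the quality weights were added after seeing the data.

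Named genes were Eed, 11 serotonergic genes, on each side the called genes with the largest change or smallest p, filled to 8 by p, and 5 per side of each difference test. The members and the 34 lists were chosen with earlier results of these data known. Coordinates and the promoter are from RefSeq (GRCm38.p6), matched by symbol for 22460 genes (91.4%).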

Additional observations from a re-analysis of the deposited data

Results flagged for a closer look

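Of 74 sets of 4 values examined, 11 held 1 library far from the other 3. The sets share libraries and some hold ties at 0, so this count is a description and was not set against chance. Of the 11, 8 were in S427 or S369, the 2 libraries that stand apart. S427 was high among mutants for the HOX sum (109.8 CPM, others 24.1 to 35.5) and the sum of other developmental transcription factors (821.9 CPM, others 349.1 to 405.2), and low for Tradd (2.14 CPM, others 7.59 to 8.3). S369 was low among wt libraries for Slc18a2 (1580 CPM, others 2540 to 2710) and Htr1a (47.9 CPM, others 122.5 to 133.2), high for Gata3 (185.7 CPM, others 133.5 to 142), and the only wt library with a count of Skor1 and of Vax2os (0.342 CPM each, others 0). The other 3 were mutant S425 for Slc6a4 (3450 CPM, others 2420 to 2530) and wt S367 for Rnps1 (182.4 CPM, others 216.1 to 220.6) and Cr1l (31.6 CPM, others 18.1 to 19.8).

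The mutant effect differed between ages by the test of the difference itself for Tph2 (-2.62) and Slc6a4 (-2.51), on the log2 scale, 8 minus 4 months. Between cell types at 4 months, serotonergic minus mDA, it differed for Zfp810 (2.45), Adrb1 (4.82), Tmem181a (1.84), Rnft1 (1.31), Arid5b (-2.02), Tet3 (-1.64), Gata2 (-2.53), Shox2 (-2.88) and Stk4 (-2.13). For Tradd the fitted difference was 7.17, a value that depends on the prior count because wt serotonergic libraries had 0 counts. No cause was tested for these differences.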

How the results depend on the processing

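The number of calls at 4 months depended on the processing, against 2 higher and 0 lower as reported. It was 11 higher and 1 lower with no low-count filter, 40 and 8 with DESeq2, 39 and 16 with all 51 libraries in the fit, 10 and 2 without S369 and S427, 1 and 0 with limma voom and quality weights, and 0 and 0 with the 8 libraries alone. RLE scaling and the fit without a sex term each gave 3 higher and 0 lower. Leaving out 1 library gave 0 to 4 higher and 0 lower calls. Amigo2 and Tradd were both among the calls of every one of these settings except voom and the fit without wt S374 (Amigo2 called) and the 8 libraries alone, without wt S367 and without mutant S425 (0 called). The difference between ages, 2 genes as reported, had 5 without a filter, 28 with DESeq2, 5 without S369 and S427 and 2 to 3 with 1 library left out. The difference between cell types, 17 as reported, had 9 without a filter, 178 with DESeq2 and 9 to 41 with 1 library left out. With 1 library left out the log2 fold change ran from -0.02 (without S367) to 0.29 for Gch1, 0.16 as reported, and from -0.27 to 0.13 (without S427) for Slc18a2, -0.09 as reported, neither of them called. The cause of these shifts was not tested. With 4 libraries a group and totals from 2795515 counts, genes of a few CPM carry wide intervals.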

Other observations

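CDK inhibitors are cell cycle brakes that include the PRC2 target Cdkn2a. Of 7, 6 were tested, with 4 positive values, a median of 0.84 (0.73 with the 3-count floor) and 0 calls by edgeR or DESeq2. At an unadjusted p under 0.05, 1 member was higher, against 3.77% of all tested genes. Cdkn2a had 6 counts in mutants and 0 in wt. Cdkn1a was at 7.59, 11.6, 5.57 and 31.8 CPM in mutants and 7.86, 0, 1.24 and 14.4 CPM in wt, with overlapping groups (adjusted p = 0.87). Noradrenergic genes summed to 0.165, 5.99, 31.7 and 8.93 CPM in mutants, highest in S427, and 4.96, 2.05, 8.5 and 2.88 CPM in wt. Genes of GABA and glycine neurons summed to 328, 299, 255 and 365 CPM in mutants and 317, 208, 267 and 302 CPM in wt. Genes of glutamate neurons summed to 126, 85.3, 122 and 81.6 CPM in mutants and 127, 145, 143 and 177 CPM in wt. These sums did not overlap, but mutant S425 (126 CPM) lay next to wt S367 (127 CPM). For 0 of the 3 members were all mutants below all wt libraries, against 1.2% of all tested genes. By either tool 0 of the 3 were called. Cholinergic neuron genes summed to 6.6, 2.24, 2.57 and 0.627 CPM in mutants and 3.51, 6.16, 12.2 and 8.1 CPM in wt, with overlapping groups. Of 3 tested members, 1 was positive and 2 were lower at an unadjusted p under 0.05, against 2.64% of all tested genes. For 1 (33.3%, against 1.2% of all tested genes) all mutants were below all wt libraries. This was Slc18a3, the vesicular acetylcholine transporter, which was not called (adjusted p = 0.62). It was at 0.33, 0.374, 0 and 0.157 CPM in mutants and 2.07, 2.39, 7.08 and 1.98 CPM in wt.

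Atf3, a stress-induced transcription factor, had 82 counts in mutants and 0 in wt at 4 months, at 3.47, 0.187, 0.429 and 9.24 CPM over the mutants, and was not called (adjusted p = 0.554). Imprinted genes took up 48300 to 69100 CPM of the mutant and 43900 to 72200 CPM of the wt libraries, and their 34 tested members had a median of 0.03 with 0 calls by either tool and 0 at an unadjusted p under 0.05. Axon guidance genes had a median of -0.15 over 42 tested members, and 0 were called by either tool. At an unadjusted p under 0.05, 3 were higher and 1 lower, against 3.77% and 2.64% of all tested genes.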
